A study of Mus musculus with 13 samples.

Results

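The TREM receptors, the triggering receptors expressed on myeloid cells, were followed as a family of 7 genes in RNA-Seq data of sorted brain myeloid cells. The genes were Trem2, Treml1, Treml2, Treml4, Trem1, Trem3 and B430306N03Rik, a gene that RefSeq also lists as Treml6. They were chosen by name, with earlier results of these data known, and matched by Ensembl identifier. All 7 were among the 52636 genes with a value in each mouse. In the test between genotypes 6 of the 7 passed the filter on low counts and Trem1 did not. All of them lie on the plus strand of mouse chromosome 17, in the order Trem1, Trem3, Treml4, Treml2, B430306N03Rik, Trem2 and Treml1.

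The cells came from the cortex and hippocampus of PS2APP mice at 14 to 15 months of age. Both genotypes carried the PS2APP transgenes, which encode human presenilin 2 and human amyloid precursor protein with familial Alzheimer's disease mutations and give rise to β-amyloid plaques. PS2APP;Trem2wt denotes the mice with intact Trem2 (7 mice, 5 females and 2 males) and PS2APP;Trem2ko those with the Trem2tm1(KOMP)Vlcg null allele on both chromosomes (6 mice, 5 females and 1 male). Mice without the transgenes were not analysed here. The null allele was made on a C57BL/6N background and crossed into PS2APP mice on C57BL/6J, so that DNA linked to Trem2, which includes the whole TREM cluster, goes with the genotype and cannot be told apart from the loss of Trem2. The allele carries a knock-out cassette at Trem2, next to Treml1, and its part in the Treml1 reads was not tested here. The authors regard the higher Treml1 in these mice as an artifact of that cassette and left Treml1 out of their increased transcripts. Myeloid cells were collected by FACS as CD11b+ CD45+ Ly6g- Ccr2- cells, a gate that holds microglia and some perivascular macrophages. Libraries were made with a SMART-seq v4 kit, which does not mark the strand, and read as single-end 50 base reads.

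TREM receptors carry an immunoglobulin-like domain outside the cell, and most of them have no signalling motif of their own. They pair in the membrane with the adaptor DAP12, the product of Tyrobp, whose phosphorylated tail recruits the kinase Syk. In the brain Trem2 is a receptor of microglia that senses lipids and lipoproteins and is needed for the full response of these cells to β-amyloid plaques. Trem1 and Trem3 are activating receptors of neutrophils and macrophages, Treml1 is best known from platelets, and Treml2 is found on several leukocytes.

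Each of the 7 genes has a value in each mouse in 2 units, the count of reads and the nRPKM, a value per length and per size-factor-adjusted depth. Total counts on genes ranged from 26120961 to 120569609 per mouse, and a count of 3 was taken as the limit of detection, a limit that covers counting error only. The median correlation of a library with the others lay between 0.940 and 0.964, and no library stood apart. The 10 microglia markers, among them P2ry12 and Tmem119, were detected in every mouse, with a summed nRPKM of 14360 to 17542 in PS2APP;Trem2wt and 14767 to 16622 in PS2APP;Trem2ko. Of these 10 markers 1 was called lower, the fractalkine receptor gene Cx3cr1, which fell by 0.49 on the log2 scale (SE 0.09, edgeR adjusted p = 0.00670), and 0 were called higher. Of the 4 endothelium markers only Flt1, a receptor for vascular growth factors, was called, as lower (log2 fold change -2.201, SE 0.28, edgeR adjusted p = 0.000336). Pecam1 differed by 0.11, Cldn5 by -0.16 and Cdh5 by -0.09 (edgeR adjusted p = 0.739, 0.925 and 0.959). The summed endothelium markers spanned 7.24 to 16.4 nRPKM in PS2APP;Trem2wt and 6.76 to 10.3 in PS2APP;Trem2ko. Of 7 border macrophage and of 4 neuron, 4 astrocyte and 4 oligodendrocyte markers 0 were called. Among all 17086 genes tested, 1.53% were called lower and 0.503% higher. The part of these markers in the values of the TREM genes was not tested.

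Trem2 was by far the most abundant TREM transcript of PS2APP;Trem2wt microglia. Its nRPKM was lowest at 818, median 1016 and highest at 1244 over the 7 mice, and its mean ranked as number 31 among all 52636 genes. In PS2APP;Trem2ko microglia the nRPKM was lowest at 0.393, median 0.629 and highest at 2.29 over the 6 mice. The genotypes did not overlap, and the lowest PS2APP;Trem2wt mouse was far above the highest PS2APP;Trem2ko mouse. Trem2 (ENSMUSG00000023992) spans 48346401 to 48354147 of chromosome 17 in GRCm38. The log2 fold change was -10.29 (SE 0.46) with an adjusted p of 5.47e-09 in edgeR's quasi-likelihood test.

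A small number of Trem2 reads remained in each PS2APP;Trem2ko mouse, between 41 and 186 counts against 40295 to 187913 in PS2APP;Trem2wt. As a share of the mean PS2APP;Trem2wt nRPKM, the remaining Trem2 signal averaged 0.0850% and ranged from 0.0376% to 0.220%. Every PS2APP;Trem2ko mouse was thus above the limit of 3 counts. The highest value belonged to the female PS2APP;Trem2ko replicate 4, and without this mouse the log2 fold change was -10.85. Which exons these reads cover was not analysed here.

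Of the 6 genes tested, 3 were called lower (Trem2, Treml2 and B430306N03Rik) and 1 higher (Treml1) in PS2APP;Trem2ko microglia, where a call is an edgeR adjusted p not above 0.05. Among all 17086 genes in the fit, 1.53% were called lower and 0.503% higher. All 4 also passed a threshold of 2-fold, which 0.691% of genes passed as lower and 0.0527% as higher. Their PS2APP;Trem2ko and PS2APP;Trem2wt values did not overlap, as for 1.22% of all genes on the lower side and 0.421% on the higher side. The call of Trem2 follows from the design, because the null allele removes this gene. That of Treml1 is ascribed by the authors to the cassette. The remaining calls are Treml2 and B430306N03Rik, which lie on DNA linked to Trem2. Their family was chosen with earlier results of these data known. The shares of all genes are thus given beside them as a description only. The median log2 fold change of all genes tested was 0.0039. Since these are bulk samples, fewer cells of a type and less RNA per cell cannot be told apart in any of these differences.

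**Figure D1:**
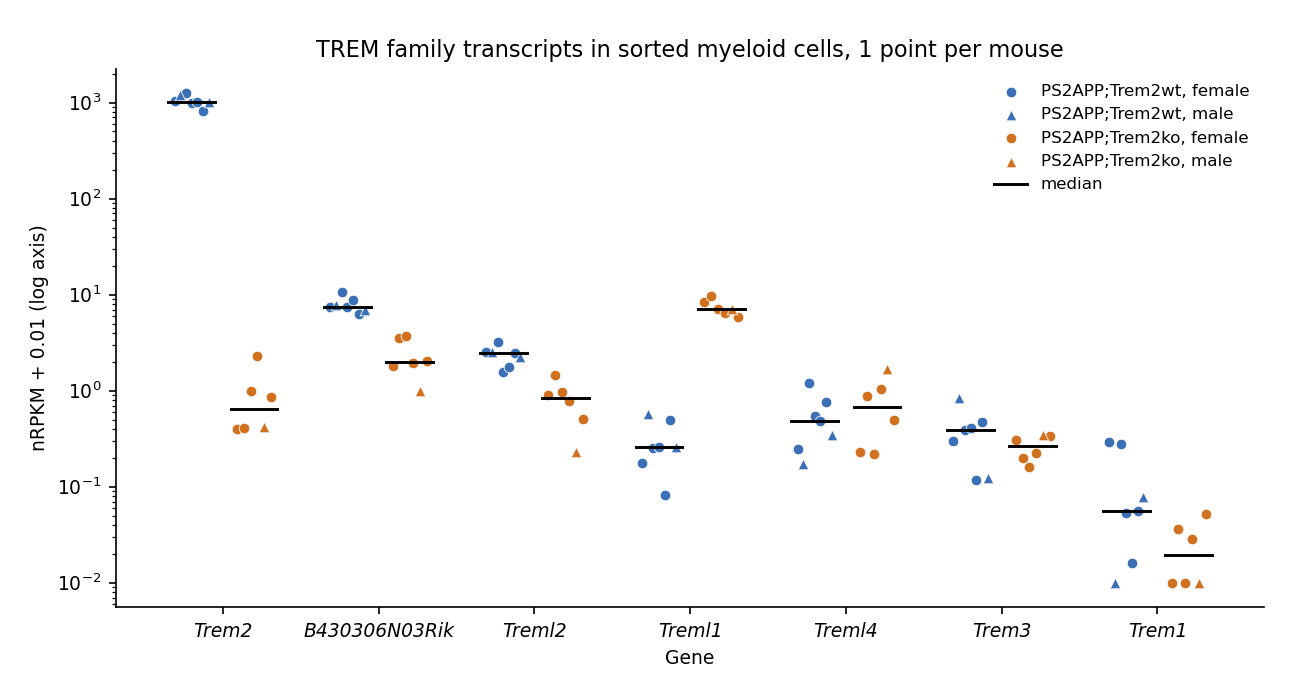
nRPKM + 0.01 on a log axis for each of the 7 TREM genes, with 1 point per mouse (circles, females; triangles, males) and bars at the medians of the 7 PS2APP;Trem2wt (blue) and 6 PS2APP;Trem2ko (orange) mice. The genotypes are apart for Trem2, B430306N03Rik, Treml2 and Treml1 and overlap for Treml4, Trem3 and Trem1.

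Treml1, a receptor with an inhibitory motif in its tail that is stored in platelet granules, rose in PS2APP;Trem2ko microglia. In PS2APP;Trem2wt its nRPKM was lowest at 0.0712, median 0.251 and highest at 0.561, from 5 to 51 counts per mouse. In PS2APP;Trem2ko it was lowest at 5.82, median 7.07 and highest at 9.78, from 465 to 1878 counts. Every PS2APP;Trem2ko mouse was above every PS2APP;Trem2wt mouse, and Treml1 changed from the next to last to the first place of the family by median nRPKM. The fitted change was 26.6-fold, or 4.73 on the log2 scale (SE 0.31, edgeR adjusted p = 1.05e-06). With limma on log2(nRPKM + 1), a scale that shrinks low values, the difference was 2.70.

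The gain in Treml1 was small beside the loss of Trem2. Mean Treml1 nRPKM in PS2APP;Trem2ko was 0.712% of mean Trem2 nRPKM in PS2APP;Trem2wt. Within PS2APP;Trem2ko mice Treml1 exceeded the remaining Trem2 signal by 2.80-fold to 24.6-fold, with a median of 12.3-fold. These ratios between genes depend on the lengths used, and per kilobase of annotated exons the share was 2.84% and the excess 10.8-fold to 94.8-fold, with a median of 47.3-fold. Treml1 (ENSMUSG00000023993) lies directly downstream of Trem2, from 48359916 to 48367176 of chromosome 17, and 5768 bases separate the annotated end of Trem2 from its start.

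Beside Treml1, markers of platelets were read in the same cells. Of the 10 platelet and megakaryocyte markers 6 were tested, and 0 passed in either direction. The summed nRPKM of all 10 was 32.2 to 39.1 in PS2APP;Trem2wt and 25.7 to 36.9 in PS2APP;Trem2ko. It came mostly from Itgb3 and Gp9, with means of 20.1 and 13.9 in PS2APP;Trem2wt, so that it mainly follows these genes. On the log2 scale Gp9 differed by -0.43 (SE 0.15, edgeR adjusted p = 0.182) and Itgb3 by -0.20 (SE 0.10, edgeR adjusted p = 0.373). Of the 6 tested markers, 3 had negative log2 fold changes. Itga2b, the integrin subunit that defines the lineage, was between 0 and 0.147 in PS2APP;Trem2wt and between 0.0105 and 0.920 in PS2APP;Trem2ko, a difference of 2.10 on the log2 scale (SE 0.91, edgeR adjusted p = 0.286). Ppbp, a chemokine gene of platelets, was between 0 and 0.399 in PS2APP;Trem2wt and between 0.0832 and 3.28 in PS2APP;Trem2ko, a difference of 2.17 on the log2 scale (SE 0.82, edgeR adjusted p = 0.212). For each of Itga2b and Ppbp 3 of 6 PS2APP;Trem2ko mice were above every PS2APP;Trem2wt mouse. The same held for Gp5, which did not pass the filter and had at most 30 counts in any mouse. The part of these markers in the Treml1 result was not tested. In the PS2APP;Trem2ko mouse with the lowest Itga2b value, the male replicate 5 with 6 counts of Itga2b, Treml1 nRPKM was 7.12. In the mouse with the highest Itga2b value, the female PS2APP;Trem2ko replicate 2, Treml1 was also highest, at 9.78.

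B430306N03Rik and Treml2, the pair of genes just upstream of Trem2, fell in PS2APP;Trem2ko microglia. B430306N03Rik (ENSMUSG00000043740) was the next most abundant family member in PS2APP;Trem2wt, with an nRPKM lowest at 6.27, median 7.42 and highest at 10.7. In PS2APP;Trem2ko it was lowest at 0.981, median 1.99 and highest at 3.73. No PS2APP;Trem2ko mouse reached the lowest PS2APP;Trem2wt mouse. It was 3.42-fold lower (log2 fold change -1.77, SE 0.25, edgeR adjusted p = 0.000963), and stayed past the threshold in all 10 other settings and in all 13 fits that each left out a mouse. The gene spans 48316141 to 48327024 of chromosome 17.

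Treml2 (ENSMUSG00000071068), a receptor of lymphoid and myeloid cells with a signalling tail of its own, had an nRPKM lowest at 1.57, median 2.44 and highest at 3.21 in PS2APP;Trem2wt. In PS2APP;Trem2ko it was lowest at 0.217, median 0.829 and highest at 1.45. The genotypes again did not overlap, with a narrow gap between the highest PS2APP;Trem2ko and the lowest PS2APP;Trem2wt mouse. It was 2.93-fold lower (log2 fold change -1.55, SE 0.32, edgeR adjusted p = 0.0180), and over the 13 fits that left out a mouse the adjusted p was between 0.00558 and 0.0459. With limma on log2(nRPKM + 1) the difference was -0.91. Treml2 spans 48299498 to 48312533 of chromosome 17.

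The ratio between both genes was set beside their fall. B430306N03Rik nRPKM was a median 3.13 times Treml2 nRPKM in PS2APP;Trem2wt and 3.22 times in PS2APP;Trem2ko. The lowest value of each gene belonged to the male PS2APP;Trem2ko replicate 5. With that mouse left out the log2 fold change was -1.35 for Treml2 and -1.61 for B430306N03Rik, and in females only it was -1.34 and -1.65, each with an adjusted p under the threshold.

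Markers of lymphocytes, on which Treml2 is also found, were read in the same cells. The B cell markers Ms4a1 and Pax5 had at most 9 counts and Cd79a at most 18 counts in any mouse. Cd79b, the 1 B cell marker that was tested, spanned 15.6 to 23.3 nRPKM in PS2APP;Trem2wt and 15.5 to 20.2 in PS2APP;Trem2ko, a difference of -0.13 on the log2 scale (SE 0.10, edgeR adjusted p = 0.569). Of 3 tested T and NK cell markers 0 were called. Klrb1c, the gene of the NK cell receptor NK1.1, differed by -2.65 on the log2 scale (SE 0.72, edgeR adjusted p = 0.0774) and passed in 5 of the 10 other settings. The remaining tested markers went the other way, Cd3e by 0.61 (SE 0.84, edgeR adjusted p = 0.791) and Trac by 1.49 (SE 0.68, edgeR adjusted p = 0.317). The summed T and NK cell markers spanned 0.299 to 2.27 nRPKM in PS2APP;Trem2wt and 0.201 to 3.03 in PS2APP;Trem2ko. Within PS2APP;Trem2ko, replicate 2 had the highest and replicate 5 the lowest value of both Treml2 and these markers, whose part in the result was not tested.

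**Figure D2:**
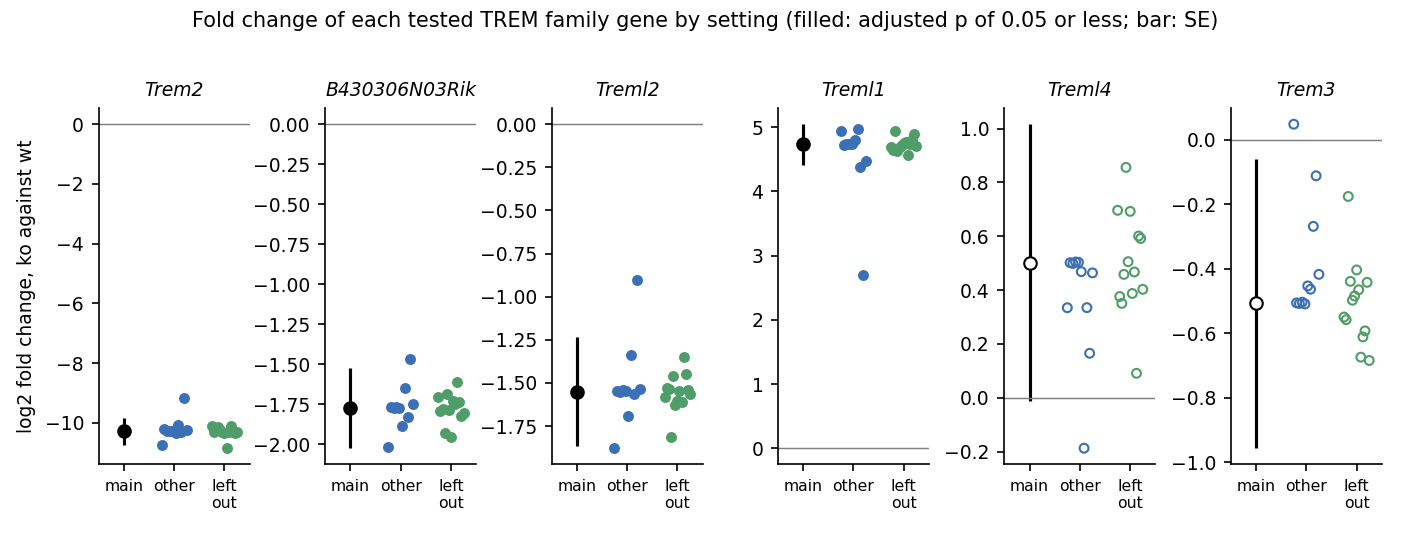
log2 fold change of PS2APP;Trem2ko against PS2APP;Trem2wt for the 6 tested TREM genes, each on its own axis. Black, edgeR with all 13 mice (bar, SE); blue, the 10 other settings; green, the 13 fits that leave out a mouse; filled points have an adjusted p of 0.05 or less, open points a higher one or none. Trem2, B430306N03Rik, Treml2 and Treml1 stay on their side of zero and filled throughout, whereas Treml4 and Trem3 are open throughout and cross zero in 1 setting each.

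Treml4, a receptor of dendritic cells and macrophages that binds dying cells, did not pass the test. Its nRPKM was lowest at 0.163, median 0.469 and highest at 1.20 in PS2APP;Trem2wt, and lowest at 0.210, median 0.674 and highest at 1.66 in PS2APP;Trem2ko. The genotypes overlapped, and the highest value was that of the male PS2APP;Trem2ko replicate 5. The log2 fold change was 0.50 (95% normal interval -0.51 to 1.51, edgeR adjusted p = 0.708) and turned to -0.19 in females only.

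Trem3, an activating receptor that pairs with DAP12, did not pass either. Its nRPKM was lowest at 0.107, median 0.380 and highest at 0.835 in PS2APP;Trem2wt, and lowest at 0.151, median 0.253 and highest at 0.339 in PS2APP;Trem2ko, from 6 to 56 counts in any mouse. The values overlapped, and the spread was wider in PS2APP;Trem2wt. The log2 fold change was -0.51 (95% normal interval -1.39 to 0.37, edgeR adjusted p = 0.653), and 0.05 in voom+limma.

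Trem1, which amplifies inflammatory responses of neutrophils and monocytes, was at the limit of detection. In PS2APP;Trem2wt it had 0 to 82 counts per mouse with a median of 6, and in PS2APP;Trem2ko 0 to 8 counts with a median of 2. It was above 3 counts in 5 of 7 PS2APP;Trem2wt and 3 of 6 PS2APP;Trem2ko mice, and the genotypes overlapped. A two-sided exact permutation test of log2(nRPKM + 0.01), over each of 1716 ways to split the mice, gave p = 0.0874. Without the filter edgeR fitted -2.91 on the log2 scale (SE 1.09, adjusted p = 0.296), and 0.794% of the 34617 genes in that fit were called in either direction.

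Neutrophil and monocyte markers varied between mice beside these low members. The summed neutrophil markers spanned 144 to 386 nRPKM in PS2APP;Trem2wt and 112 to 179 in PS2APP;Trem2ko, with 0 of 6 tested markers called. The largest part of the sum was Csf3r, a receptor gene that also microglia express, which spanned 88.1 to 153 nRPKM in PS2APP;Trem2wt and 110 to 165 in PS2APP;Trem2ko, a difference of 0.06 on the log2 scale (SE 0.12, edgeR adjusted p = 0.883). The other 5, the granule and calprotectin genes S100a8, S100a9, Camp, Ngp and Ltf, had log2 fold changes from -1.61 to -1.25 and adjusted p-values from 0.309 to 0.455, and Ngp had up to 4546 counts in a mouse. The male PS2APP;Trem2wt replicate 2 was highest for these markers and for Trem3, but had 0 counts of Trem1. The summed monocyte markers, which include Treml4 itself, spanned 5.35 to 25.6 nRPKM in PS2APP;Trem2wt and 5.72 to 20.9 in PS2APP;Trem2ko, with 0 of 8 called. Their part in the values of Trem1, Trem3 and Treml4 was not tested.

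The makeup of the family's reads turned over with the genotype. Trem2 carried a median 96.5% of the family's counts in PS2APP;Trem2wt (95.9% to 96.8% over the 7 mice) and 3.23% in PS2APP;Trem2ko (1.30% to 10.9%). B430306N03Rik went from a median share of 2.53% to 36.2%, Treml1 from 0.0263% to 35.8%, Treml2 from 0.838% to 14.5% and Treml4 from 0.0684% to 4.28%. A higher share here is not a higher level, since Treml2 and B430306N03Rik fell while the family's total fell far more. The 7 genes together took a median 0.169% of a library's counts in PS2APP;Trem2wt and 0.00343% in PS2APP;Trem2ko, from 41955 to 194253 and from 1273 to 4063 counts.

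**Figure D3:**
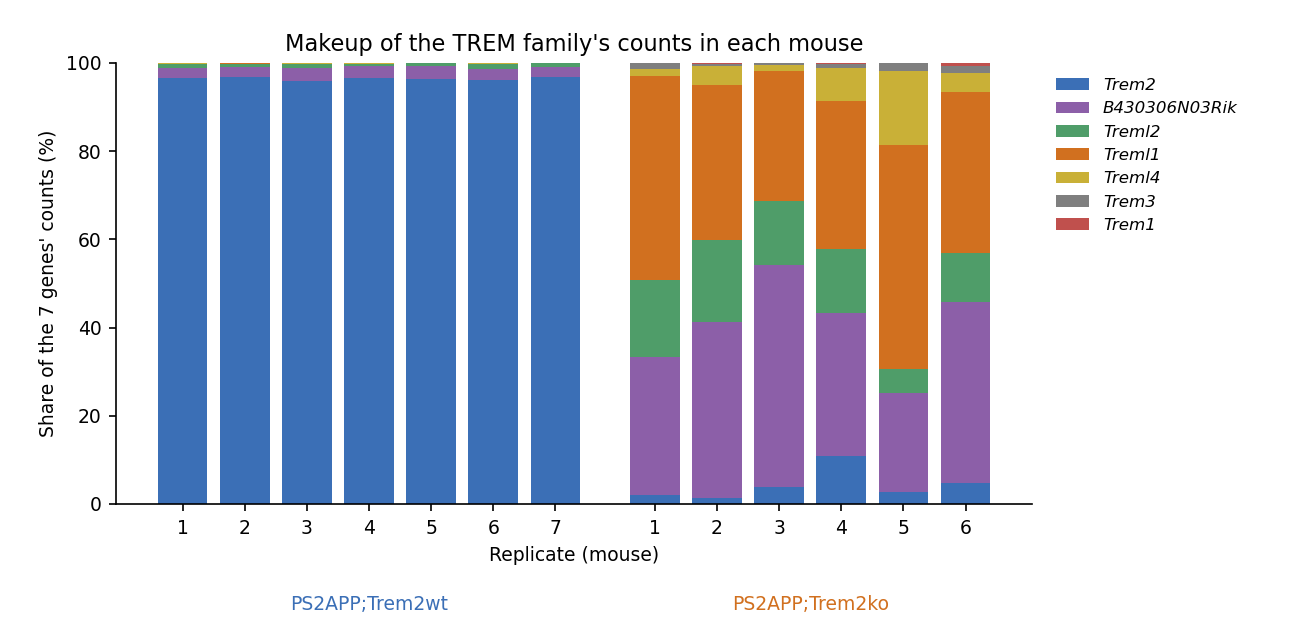
Share of the 7 genes' summed counts taken by each gene, in percent, with 1 bar per mouse. Trem2 (blue) fills at least 95.9% of each PS2APP;Trem2wt bar, and in PS2APP;Trem2ko most of each bar is Treml1 (orange) and B430306N03Rik (purple).

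Ordered by median nRPKM, which is per length, the family ran Trem2, B430306N03Rik, Treml2, Treml4, Trem3, Treml1 and Trem1 in PS2APP;Trem2wt, and Treml1, B430306N03Rik, Treml2, Treml4, Trem2, Trem3 and Trem1 in PS2APP;Trem2ko. In PS2APP;Trem2wt each of the 7 mice had Trem2 above B430306N03Rik (median 133 times, or 40.6 times per kilobase of annotated exons), B430306N03Rik above Treml2 and Treml2 above Treml4. Treml4, Trem3 and Treml1 changed places between mice. In PS2APP;Trem2ko each of the 6 mice had Treml1 above B430306N03Rik and B430306N03Rik above Treml2, whereas Treml2, Treml4 and Trem2 changed places. The smallest p that an exact sign-flip permutation test allows is 0.0156 with 7 mice and 0.03125 with 6 mice, and adjusted over the 12 neighbouring pairs the smallest value was 0.0536, so that no pair passed 0.05.

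Within a genotype, the levels of family members were compared across mice for 5 pairs of genes, 10 relations in all. Treml2 and B430306N03Rik had the highest Pearson correlation, in PS2APP;Trem2ko (Pearson r = 0.87, exact permutation p = 0.0361, adjusted p = 0.217; Spearman rho = 0.71, exact permutation p = 0.136, adjusted p = 0.340; n = 6), and r was 0.41 without the 2 mice farthest from the median. In PS2APP;Trem2wt the same pair had r = 0.32 (exact permutation p = 0.490, adjusted p = 0.700) and rho = 0.43 (exact permutation p = 0.354, adjusted p = 0.589) with n = 7. Trem2 and B430306N03Rik in PS2APP;Trem2wt had r = 0.78 (exact permutation p = 0.0435, adjusted p = 0.217) and rho = 0.71 (exact permutation p = 0.0881, adjusted p = 0.340), with r = 0.10 without the 2 farthest mice. Trem2 and Treml2 in PS2APP;Trem2wt had the highest rank correlation (rho = 0.79, exact permutation p = 0.0480, adjusted p = 0.340), with r = 0.43 (exact permutation p = 0.317, adjusted p = 0.625) and r = 0.66 without the 2 farthest mice. None of the 10 relations passed 0.05 after adjustment.

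The 250 bases before the annotated start are shown for the 3 members with a changed level whose start RefSeq gives, since these are the stretches next to which the changes were measured. RefSeq sequences on GRCm38.p6 were matched for 5 of the 7 members, and Treml2 and Trem3 are named only. The windows are chr17:48346151-48346400 for Trem2, chr17:48359666-48359915 for Treml1 and chr17:48315912-48316140 for B430306N03Rik, all on the plus strand and written from 5′ to 3′. The last of these has 229 bases, because it stops where the GENCODE transcript begins. Capitals mark GAGGAA or its reverse complement TTCCTC, a core bound by the myeloid factor PU.1, and the E-box CACGTG, which is its own reverse complement.
Trem2: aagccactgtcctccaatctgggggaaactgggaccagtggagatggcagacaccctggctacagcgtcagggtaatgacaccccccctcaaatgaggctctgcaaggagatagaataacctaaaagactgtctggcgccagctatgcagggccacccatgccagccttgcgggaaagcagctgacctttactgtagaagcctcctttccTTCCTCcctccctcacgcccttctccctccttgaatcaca
Treml1: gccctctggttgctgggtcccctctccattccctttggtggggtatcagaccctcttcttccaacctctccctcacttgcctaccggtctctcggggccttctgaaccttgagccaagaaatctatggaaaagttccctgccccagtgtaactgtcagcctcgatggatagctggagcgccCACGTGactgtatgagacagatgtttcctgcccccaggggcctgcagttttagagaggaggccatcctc
B430306N03Rik: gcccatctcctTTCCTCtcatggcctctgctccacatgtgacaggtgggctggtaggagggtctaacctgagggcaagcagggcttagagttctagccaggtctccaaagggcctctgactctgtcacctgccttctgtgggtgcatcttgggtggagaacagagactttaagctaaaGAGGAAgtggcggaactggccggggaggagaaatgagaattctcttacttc
The motifs were picked after the windows had been read. The window of Trem2 held 1 match to GAGGAA and that of B430306N03Rik held 2, on opposite strands, while Treml1 held 1 E-box and no GAGGAA. The matches do not overlap each other. Over all 32851 RefSeq windows of 250 bases, 23.3% held GAGGAA on either strand and 6.02% held CACGTG, so that a match is a description of these letters and no more.

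None of the 7 members overlaps another gene annotated in GENCODE M21 on either strand. Of the 50-base words of their transcripts, 3.56% of those of B430306N03Rik also occur in other genes, first of all A530064D06Rik, and 0% of those of the other 6 members, so that a small part of the B430306N03Rik count is uncertain.

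Along the chromosome, the members were compared with the other genes whose start lies within 1 Mb of Trem2. On the side beyond Treml1 the tested genes reach only Unc5cl, whose start lies 108500 bases after that of Trem2, so that most of the window is covered on the other side. Of 24 tested genes there that are no members, 1 was called lower and 0 higher in edgeR, beside 1.53% and 0.503% of all genes. That gene was Nfya, which encodes a subunit of the transcription factor NF-Y and is the nearest tested gene beyond Treml1. Its nRPKM was lowest at 1.63, median 2.47 and highest at 3.12 in PS2APP;Trem2wt and lowest at 1.03, median 1.53 and highest at 1.76 in PS2APP;Trem2ko, with overlap between the genotypes. It fell by 0.74 on the log2 scale (SE 0.17, edgeR adjusted p = 0.0319), and the call held in 5 of the 13 fits that left out a mouse.

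The nearest tested gene on the other side of the cluster, A530064D06Rik, did not pass. Its nRPKM had a median of 0.478 in PS2APP;Trem2wt and of 0.201 in PS2APP;Trem2ko, with ranges that overlapped (0.137 to 1.35 and 0.0645 to 0.445). The log2 fold change was -1.26 (SE 0.50, edgeR adjusted p = 0.237). The 6 tested genes within 0.5 Mb that are no members all had negative log2 fold changes, with a median of -0.74, of which 1 was called. Within 1 Mb 14 of 24 were negative, and the median was -0.03. Of all tested genes 49.3% had a negative log2 fold change.

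**Figure D4:**
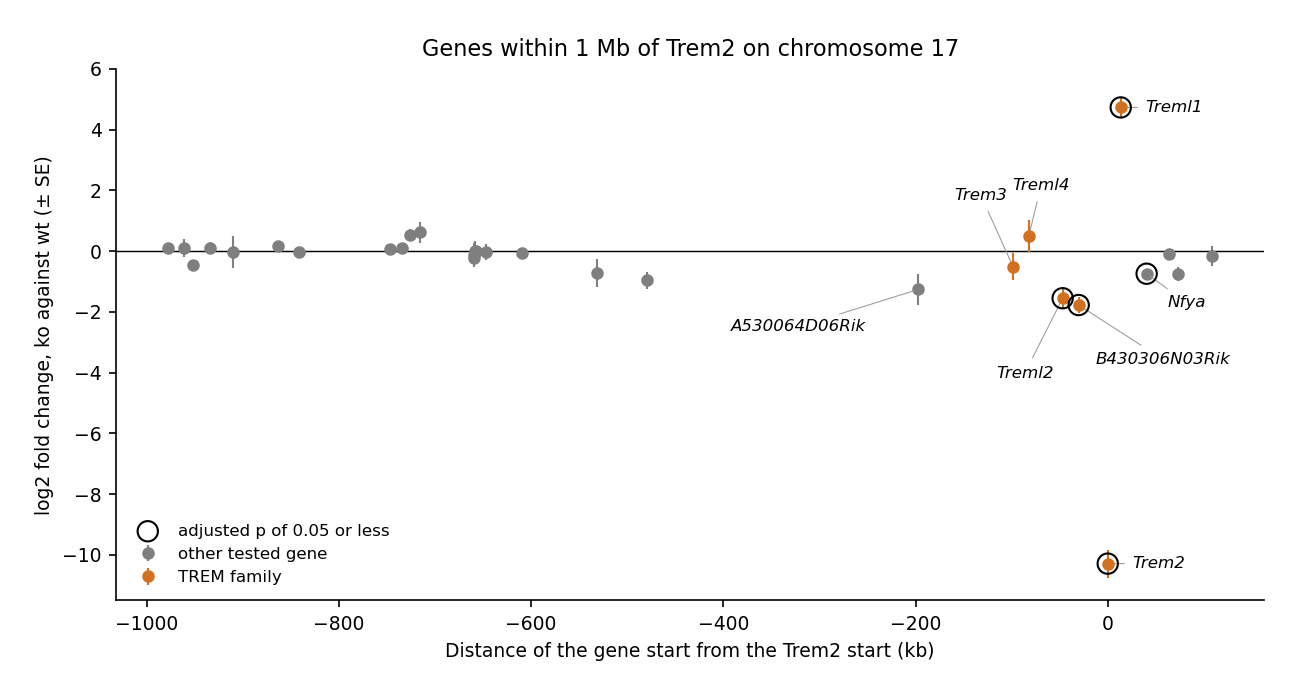
log2 fold change (± SE) of PS2APP;Trem2ko against PS2APP;Trem2wt for the 30 tested genes whose start lies within 1 Mb of Trem2, by distance of the start from the Trem2 start in kb. TREM genes are orange, others grey, and rings mark an adjusted p of 0.05 or less; the ringed genes are Trem2, Treml1, Treml2, B430306N03Rik and Nfya.

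Of the adaptors of TREM receptors, 1 of 2 tested genes fell and 0 rose. Among all 17086 genes tested, 1.53% were called lower and 0.503% higher. Tyrobp, which encodes DAP12, had an nRPKM lowest at 1542, median 1821 and highest at 2197 in PS2APP;Trem2wt and lowest at 1124, median 1300 and highest at 1635 in PS2APP;Trem2ko. In PS2APP;Trem2ko 5 of 6 mice lay under the lowest PS2APP;Trem2wt mouse, so that 1 overlapped. Tyrobp fell by 0.48 on the log2 scale (SE 0.10, edgeR adjusted p = 0.0202), a call lost in females only (adjusted p = 0.0709), without PS2APP;Trem2ko replicate 4 (0.0507) and without PS2APP;Trem2ko replicate 6 (0.0534).

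Hcst, which encodes the related adaptor DAP10, had an nRPKM lowest at 12.9, median 18.9 and highest at 22.9 in PS2APP;Trem2wt and lowest at 9.33, median 12.7 and highest at 17.2 in PS2APP;Trem2ko. The ranges overlapped, with 4 of 6 PS2APP;Trem2ko mice under the lowest PS2APP;Trem2wt mouse. The log2 fold change was -0.48 (SE 0.17), as for Tyrobp, but the adjusted p was 0.172 in edgeR.

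Of the kinases, lipid enzymes and scaffolds that relay DAP12 signals, 2 of 20 tested genes fell and 0 rose. The shares of all genes were 1.53% and 0.503%, and the list's median log2 fold change was -0.01. Fgr, a kinase of the Src family, had a median nRPKM of 5.06 in PS2APP;Trem2wt (3.93 to 12.2) and of 1.86 in PS2APP;Trem2ko (1.44 to 3.998). The ranges overlapped by 1 PS2APP;Trem2ko mouse, and the log2 fold change was -1.43 (SE 0.29, edgeR adjusted p = 0.0165). Fyn, of the same kinase family, had a median nRPKM of 6.62 (4.43 to 9.88) and 4.02 (2.06 to 5.08), with 4 of 6 PS2APP;Trem2ko mice under the lowest PS2APP;Trem2wt mouse. Its log2 fold change was -0.82 (SE 0.20, edgeR adjusted p = 0.0452), and it held in 2 of the 13 fits that left out a mouse. Syk, the kinase recruited by DAP12, differed by 0.06 on the log2 scale (SE 0.08, edgeR adjusted p = 0.803), and the most abundant gene of the list, the phosphatase Ptpn6, by -0.01 (SE 0.09, adjusted p = 0.965).

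Of the genes for TREM ligands and sheddases 0 of 10 tested passed in either direction in edgeR, where 2.04% of all genes did. The median log2 fold change was -0.01. Apoe, the most abundant, encodes a lipoprotein that Trem2 binds. Its nRPKM spanned 2896 to 6413 in PS2APP;Trem2wt and 2497 to 3954 in PS2APP;Trem2ko, and the log2 fold change was -0.28 (SE 0.17, edgeR adjusted p = 0.480). Adam10 and Adam17, proteases that shed the Trem2 ectodomain, had log2 fold changes of -0.04 (SE 0.10) and -0.14 (SE 0.08).

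Among other receptors coupled to DAP12, 1 of 11 tested genes fell and 0 rose, with a median log2 fold change of 0.11. Here too the shares of all genes were 1.53% lower and 0.503% higher. The same gene, Cd300lb, was the 1 called of 7 tested genes of the CD300 family, a family related to TREM, whose median was also 0.11. Cd300lb encodes an activating receptor and had a median nRPKM of 3.09 (2.83 to 4.86) in PS2APP;Trem2wt and 2.04 (1.48 to 2.70) in PS2APP;Trem2ko. The genotypes did not overlap, and the log2 fold change was -0.69 (SE 0.16, edgeR adjusted p = 0.0316), a call that held in 7 of the 13 fits that left out a mouse. The most abundant genes of these lists, Siglech and Cd300c2, had log2 fold changes of 0.13 (SE 0.08, adjusted p = 0.514) and 0.11 (SE 0.07, adjusted p = 0.523).

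**Figure D5:**
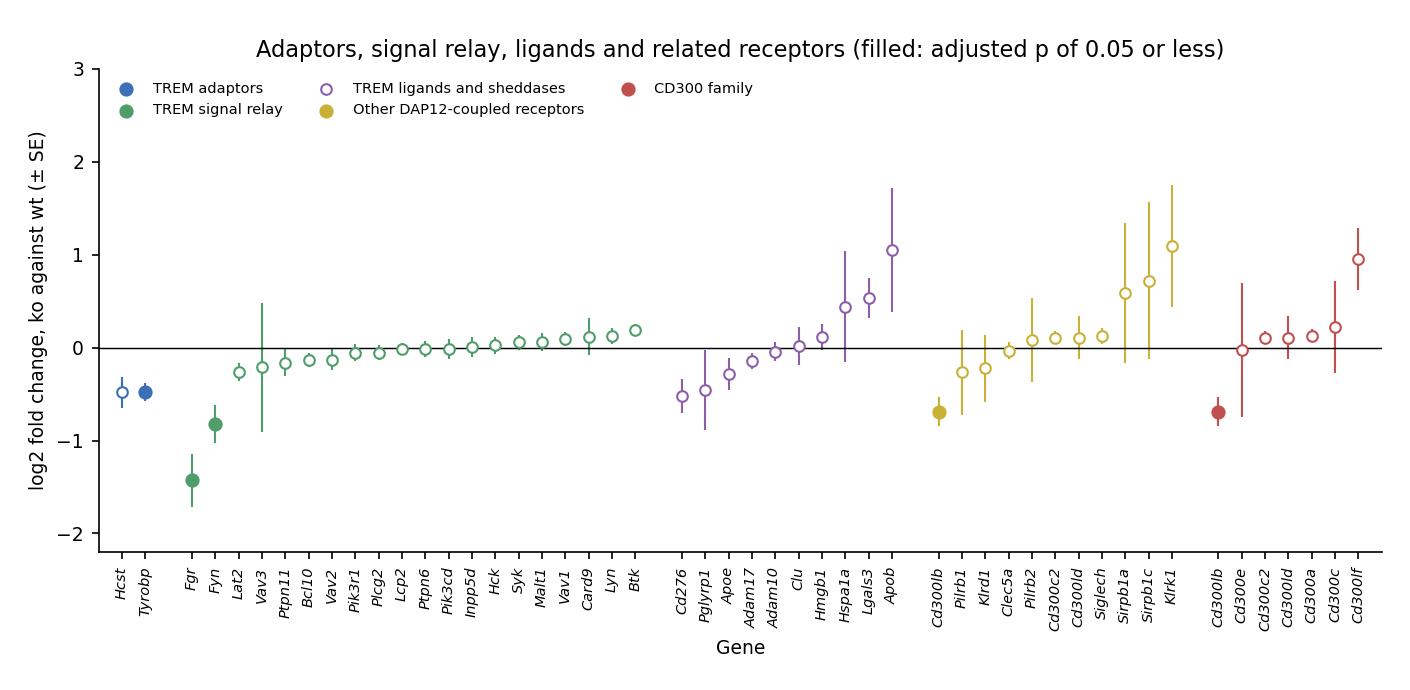
log2 fold change (± SE) of PS2APP;Trem2ko against PS2APP;Trem2wt for the tested genes of 5 lists around the TREM receptors, with filled points for an adjusted p of 0.05 or less. The filled genes are Tyrobp, Fgr, Fyn and Cd300lb, the last drawn in both lists that hold it.

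For each tested member the 3 genes most like it were sought by Pearson's r of log2 CPM deviations from the genotype mean, over the 7 PS2APP;Trem2wt mice for Trem2 and over all 13 mice for the others. These are the highest of 17086 correlations over few mice, which share libraries and depth, and are given as a description. For Trem2 they were Gm42922 (r = 0.99), Aamp (0.98) and Ctnna3 (0.97). For B430306N03Rik they were H2-Q5 (r = 0.92), the complement gene C2 (0.91) and Nlrc5 (0.90), a regulator of MHC class I genes. For Treml2 they were Gimap3 (r = 0.94), 6330562C20Rik (0.93) and Cd8b1 (0.93), of which Cd8b1 encodes a chain of the T cell coreceptor CD8. Treml1 was followed by Il1bos (r = 0.88), Megf6 (0.88) and Ly6g5b (0.88), Treml4 by Tor1b (0.92), Sptlc2 (0.88) and Slc35a5 (0.88), and Trem3 by Rec114 (0.86), Hecw1 (0.85) and Cav1 (0.81). Several of these genes were low, with a mean nRPKM of 0.113 for Gm42922, 0.221 for Gimap3 and 0.250 for Cd8b1. Il1bos, Megf6 and Hecw1 had 0.132, 0.0489 and 0.0259, whereas others were higher, such as Aamp with 69.2.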

How the data were processed

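RNA-Seq data of 13 mice were used, each mouse being 1 replicate. The authors aligned reads to GRCm38 with GSNAP and deposited, for each gene and mouse, the count of reads without normalization and the nRPKM, an RPKM value proportional to DESeq size factors. The aligner and build are those of the submitters' processing notes. Whether counting used the strand is not given in the sources used here. Genotype and sex were taken from the labels, and names and coordinates from GENCODE M21, which names 52489 of the 52636 genes. Total counts were 26120961 to 114857155 per PS2APP;Trem2wt mouse and 41567025 to 120569609 per PS2APP;Trem2ko mouse.

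Deposited counts were filtered with edgeR 4.0.16 (filterByExpr by genotype), scaled by TMM and compared with glmQLFit and glmQLFTest in R 4.3.3 without covariates, with Benjamini-Hochberg adjustment over all 17086 genes. Positive fold changes are higher in PS2APP;Trem2ko. The scripts were tested on simulated data, on which DESeq2, used here as an alternative only, made false calls above the nominal rate. The same comparison was run with other tests (DESeq2 1.42.0, voom+limma with limma 3.58.1, and limma on log2 nRPKM with a pseudocount of 0.1 or 1), with RLE size factors, with the filter dropped or set to 10 counts in at least 6 mice, with a term for sex, in the females alone, with counts thinned to the total of the smallest library, and with each mouse left out in turn. Levels within a genotype and relations used log2(nRPKM + 0.01) and exact permutation tests, in Python 3.11.15 with scipy 1.17.1. Lengths implied by nRPKM were within 5% of the annotated exons for 97.0% of 607 genes with 1 transcript, but for Trem2 the implied length was 1143 bases against 4946 of merged exons, and for B430306N03Rik 3996 against 5256, so that ratios between members are also given per kilobase of annotated exons (for 3 ratios, a choice made after seeing the data).

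The members, lists and tests were chosen with earlier results of these data known. The genes named are the 7 members, both adaptors, the called genes and the most abundant gene of each other list, the called genes within 1 Mb and the nearest tested gene on each side, and the 3 genes most like each tested member. Syk, Adam10, Adam17 and the cell type markers were named after their values were seen.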

Additional observations from a re-analysis of the deposited data

Results flagged for a closer look

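The Trem2 nRPKM of the female PS2APP;Trem2ko replicate 4 was 2.29, far from the other 5 mice of its genotype, which lay between 0.393 and 0.979. Its gap to the nearest mouse was 0.691 of the whole range, above Dixon's critical value of 0.625. It was the 1 group flagged of 20 tested, and chance flags about 1 in 20. The value came from 186 counts, and the Treml1 nRPKM of the same mouse was 6.42, inside the range of its genotype. The cause was not tested.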

How the results depend on the processing

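The calls for Trem2, Treml1, Treml2 and B430306N03Rik held in all 10 other settings and in all 13 fits that left out a mouse. Of the members not called, Treml4 turned from 0.50 to -0.19 in females only and Trem3 from -0.51 to 0.049 in voom+limma, on the log2 scale. The 4 lower calls in the pathway lists came to 0 in females only, and to between 1 and 4 without 1 mouse (1 without PS2APP;Trem2ko replicate 4 or 6, 2 without PS2APP;Trem2wt replicate 3 or 5 or PS2APP;Trem2ko replicate 5). The 1 lower call near Trem2, Nfya, came to 2 calls in DESeq2, to 0 in females only and with thinned counts, and to 0 or 1 without 1 mouse; within 2 Mb 2 genes were lower, and within 5 Mb 2 were lower and 1 higher. Per annotated exon length in place of nRPKM, the mean log2 ratio in PS2APP;Trem2ko turned from 1.505 to -0.54 for Trem2 over Trem3 and from -0.30 to 1.57 for Treml4 over Trem2. On that scale, chosen after seeing the data for these values, Treml1 in PS2APP;Trem2ko was 2.84% in place of 0.712% of Trem2 in PS2APP;Trem2wt, its median excess over the remaining Trem2 was 47.3-fold in place of 12.3-fold, and Trem2 was 40.6 times B430306N03Rik in place of 133 times. As nRPKM shares, the family shares were 99.0% for Trem2, 0.217% for Treml2 and 0.741% for B430306N03Rik in PS2APP;Trem2wt, and 59.1% for Treml1, 6.69% for Treml2, 2.06% for Trem3 and 17.8% for B430306N03Rik in PS2APP;Trem2ko. Fewer mice, other genes tested or another length are part of these settings, and other causes were not tested. Trem1 and Trem3 rest on low counts, 0 to 82 and 6 to 56 per mouse. No paired analysis was possible because the study handled mice of both genotypes as pairs up to the sort, but the labels do not say which, and the replicate numbers used here follow the order of the samples only.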
